A study of Mus musculus with 16 samples.

Results

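The epidermal keratins described here are 10 genes, chosen by name from the 55359 genes counted in each mouse. They are *Krt5*, *Krt14* and *Krt15*, known from the basal layer, *Krt1*, *Krt10*, *Krt2*, *Krt77* and *Krt78*, known from the suprabasal layers, and *Krt79* and *Krt80*, which are expressed in more specialised or more widespread epithelia. RNA was measured in whole dorsal skin of 16 WT C57Bl/6 mice (C57Bl/6N in the study's text) aged 8 weeks, whose hair follicles were labelled as telogen (resting). Both sexes were split into 4 UVB-irradiated and 4 no-UVB mice, which gave 4 groups of 4. The irradiated mice had been exposed to UVB 3 times and were sampled 6 h after the last exposure, on day 5, and the labels name no transgene and no other agent. The question addressed is how the keratins of the basal and suprabasal layers differ between irradiated and non-irradiated skin, and whether they do so equally in both sexes.

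Keratins are the intermediate filament proteins of epithelial cells, and each filament is built from pairs of a type I and a type II keratin. Cells of the basal layer make the pair *Krt5* (type II) and *Krt14* (type I). When a cell leaves the basal layer it switches to the pair *Krt1* (type II) and *Krt10* (type I), so the balance of the pairs is widely used to follow epidermal differentiation. *Krt15* is a type I keratin of basal cells and of the stem cells in the hair follicle bulge.

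All 10 genes were found, all lie on the minus strand of GRCm39, and all passed the filter on low counts in every comparison. The type I genes are on chromosome 11, with *Krt14* at chr11:100093988-100098490, *Krt15* at chr11:100022584-100026775 and *Krt10* at chr11:99276072-99280195. The type II genes are on chromosome 15, with *Krt5* at chr15:101615505-101621346, *Krt1* at chr15:101753861-101759229, *Krt2* at chr15:101719124-101726605 and *Krt77* at chr15:101767166-101778245. The same cluster holds *Krt78* at chr15:101854436-101862722, *Krt79* at chr15:101837767-101848759 and *Krt80* at chr15:101245325-101268043. The counts cover the exons of each gene.

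RefSeq promoter windows of 300 bases, from 250 before to 50 after the annotated start in GRCm38.p6, were at hand for 7 of the 10 genes, namely *Krt5*, *Krt14*, *Krt10*, *Krt2*, *Krt77*, *Krt78* and *Krt79*. The last 80 bases before the start are shown for 5 of them, because neighbours in the same gene cluster carry different A/T-rich motifs at nearly the same distance from the start. Capitals mark TATATA or TATAAA in the first 3 genes and GATAAAA in the other 2.
Krt10, chr11:99389365-99389444, minus strand: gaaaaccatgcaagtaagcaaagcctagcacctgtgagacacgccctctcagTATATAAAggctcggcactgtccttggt
Krt2, chr15:101818170-101818249, minus strand: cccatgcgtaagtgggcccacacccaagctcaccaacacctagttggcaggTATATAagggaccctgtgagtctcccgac
Krt77, chr15:101869706-101869785, minus strand: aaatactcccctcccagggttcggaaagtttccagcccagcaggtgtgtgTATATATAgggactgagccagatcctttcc
Krt5, chr15:101712906-101712985, minus strand: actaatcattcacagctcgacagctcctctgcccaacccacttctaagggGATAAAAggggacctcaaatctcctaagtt
Krt78, chr15:101954288-101954367, minus strand: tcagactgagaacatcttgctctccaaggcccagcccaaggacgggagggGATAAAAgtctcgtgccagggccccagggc

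TATAAA, searched on both strands, was in 13.6% of 32534 distinct promoter windows and, of the 7 windows, in that of *Krt10* at position -26. TGACTCA (in 5.20% of all windows), GCCNNNGGC (16.7%) and GGGCGG (35.9%) were in none of the 7. TATATA and GATAAAA were looked for after these sequences had been read. TATATA overlaps the TATAAA of *Krt10*, began between positions -30 and -28 in *Krt10*, *Krt2* and *Krt77*, and was in 5.44% of all windows. GATAAAA began at position -30 in *Krt5* and *Krt78*, was after the start in *Krt79*, and was in 3.41% of all windows. These shares count the whole window on both strands. Between 40 and 16 bases before the start, on the strand of the gene, TATAAA was in 1.99%, TATATA in 0.947% and GATAAAA in 0.200% of all windows.

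Each library held 16495776 to 33404831 reads on genes (median 21767339). The values below are read counts scaled to library size (CPM, with TMM scaling), and n = 4 mice in each group. A gene was called at a Benjamini-Hochberg adjusted p under 0.1 in edgeR's quasi-likelihood test over all genes. Keratinocyte markers that are not among the 10 genes were present in every mouse, with the basal markers *Col17a1*, *Itga6*, *Itgb4* and *Trp63* at no less than 506.5, 148.8, 152.7 and 104.4 CPM. The suprabasal markers *Sbsn*, *Krtdap*, *Dsg1a* and *Lgals7* were at no less than 792.4, 542.5, 536.4 and 379.8 CPM. Skeletal muscle markers were also present, at 12128 to 22632 CPM. Among no-UVB males, mice 3 and 4 had a summed level of 8 hair shaft and inner root sheath markers of 35.8 and 57.6 CPM, against 4.69 to 9.48 CPM in the other 14 mice. Keratin calls and signs that change without these mice are given with and without them. Sizes and ratios are given with all mice unless stated. Without them the male log2 fold changes of *Krt14*, *Krt1*, *Krt79* and *Krt2* for UVB were 1.9, 3.7, 1.1 and 4.0. All males gave 1.4, 3.1, 0.92 and 4.3. In whole skin, fewer cells of a type and less RNA per cell cannot be told apart.

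Compared per kb of exon, *Krt10* had the highest level in the 8 no-UVB mice, at 1920 ± 339 CPM per kb (mean ± SD). *Krt5* (1192 ± 243), *Krt77* (1116 ± 164), *Krt15* (1004 ± 218) and *Krt14* (799.9 ± 208) followed, and the range of each over the mice overlapped that of the gene before it. Within each of the 8 mice, however, *Krt10* was above *Krt5*. A gap separated these genes from *Krt79* (190.2 ± 45.6), *Krt1* (161 ± 62.6) and *Krt80* (91.4 ± 8.97). Of the latter, *Krt79* overlapped *Krt1* and *Krt1* overlapped *Krt80*, though *Krt1* was above *Krt80* within each mouse. *Krt78* was lower at 26.4 ± 3.65 CPM per kb, and *Krt2* lowest at 0.348 ± 0.154, and *Krt80*, *Krt78* and *Krt2* did not overlap each other. Taken over the longest transcript in place of all exons, *Krt79* was at 368.8 and *Krt80* at 149.1 CPM per kb in the no-UVB mice, in the same place of their order. Non-irradiated skin thus held far less *Krt1* than *Krt10* RNA although the 2 proteins pair with each other. In UVB-irradiated males the order per kb was *Krt10*, *Krt14*, *Krt1*, *Krt5*, *Krt77*, *Krt15*, *Krt79*, *Krt80*, *Krt78* and *Krt2*, with overlap between *Krt14* and *Krt1*, between *Krt1* and *Krt5*, and between *Krt15* and *Krt79*. In UVB-irradiated females it was *Krt10*, *Krt77*, *Krt14*, *Krt5*, *Krt1*, *Krt15*, *Krt79*, *Krt80*, *Krt78* and *Krt2*. In those females *Krt77*, *Krt14* and *Krt5* overlapped in that order, as did *Krt1* and *Krt15*. Both orders after UVB are for exon length only. *Krt79* has 4753 bases of exon and 2451 in its longest transcript, and *Krt15* has 1790 and 1720. The place of *Krt79* below *Krt15* in irradiated males therefore depends on the length used.

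**Figure D1:**
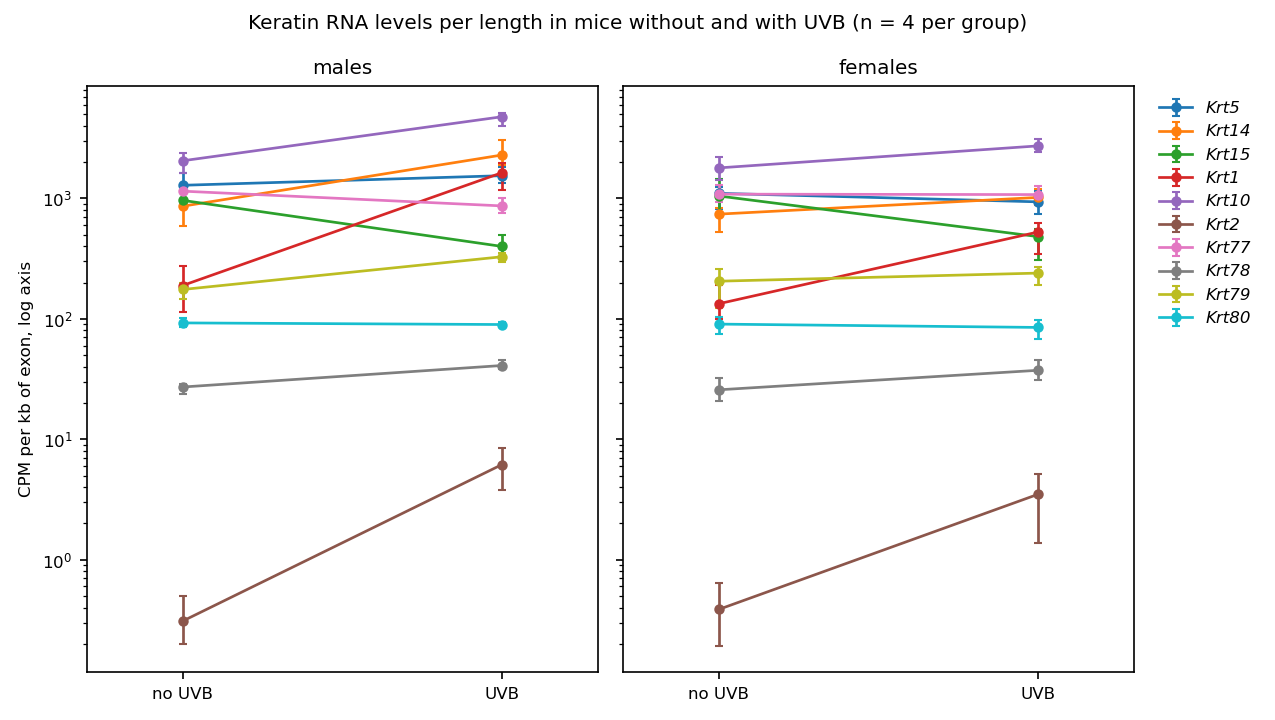
Mean level per kb of exon (log axis, CPM per kb) of each keratin in no-UVB and UVB-irradiated mice, with males on the left and females on the right. Bars run from the lowest to the highest of 4 mice and lines join group means of different mice. The *Krt1* line crosses those of *Krt15*, *Krt77* and *Krt5* in males, where its mean went from 189 to 1633 CPM per kb, and in females it crosses that of *Krt79* and narrowly that of *Krt15*, going from 133 to 526.

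In males, UVB-irradiated skin had more RNA of 6 of the 10 keratins (*Krt14*, *Krt1*, *Krt10*, *Krt2*, *Krt78* and *Krt79*), less of 2 (*Krt15* and *Krt77*), and 2 (*Krt5* and *Krt80*) did not pass the test. Over all 16535 genes tested, 29% were called higher and 30.5% lower. Of the keratins, 4 were called higher with a log2 fold change past 1 and 1 was called lower past it, against 4.08% and 3.31% of all genes. The median log2 fold change of the keratins was 0.77, and that of all genes -0.02. In females, 5 keratins rose (*Krt14*, *Krt1*, *Krt10*, *Krt2* and *Krt78*), *Krt15* fell, and 4 did not pass, where 12.8% of 16883 genes were called higher and 10.6% lower. Past the fold threshold 2 keratins were higher and 1 lower in females, against 1.63% and 1.08% of all genes. The median over the keratins was 0.35 in females, and that of all genes 0.00. The 5 higher keratins of females were all among the 6 of males, and *Krt15* was lower in both sexes.

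**Figure D2:**
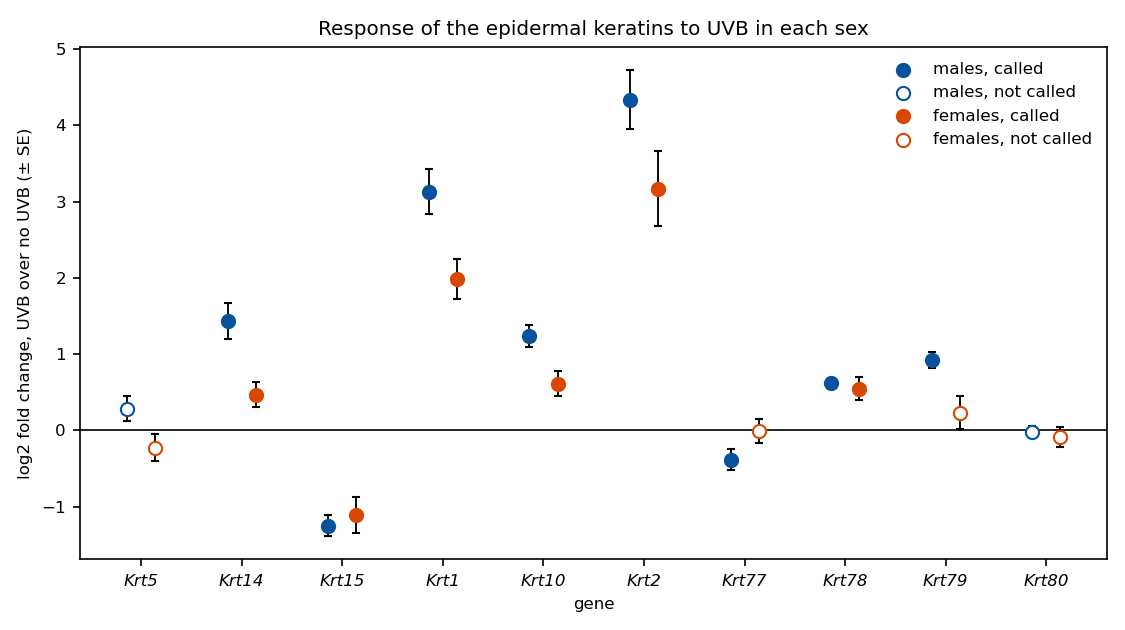
Fitted log2 fold change of UVB-irradiated over no-UVB skin for each keratin, with its standard error, in males (blue) and females (orange). Filled points passed the adjusted p of 0.1. The point of *Krt2* is the highest in both sexes (4.34 and 3.17), that of *Krt15* the lowest (-1.25 and -1.11), and those of *Krt80* lie beside 0.

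The basal pair did not move together. *Krt5*, the type II partner, was at 2543, 2173, 3593 and 3039 CPM in no-UVB males 1 to 4 and at 3094, 4015, 3588 and 2937 in UVB-irradiated males. The females had 2576, 2726, 2629 and 1799 CPM without it and 1940, 1623, 2541 and 2163 after UVB. The groups overlapped in both sexes, with a log2 fold change of 0.29 ± 0.16 (SE; edgeR adjusted p = 0.151) in males and -0.23 ± 0.18 (edgeR adjusted p = 0.425) in females. The male value passed with DESeq2's test (0.29, adjusted p = 0.0964), without no-UVB male 3 (0.44, edgeR adjusted p = 0.0271) and without no-UVB males 3 and 4 (0.57, edgeR adjusted p = 0.0101).

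*Krt14*, the type I partner, was at 1262, 1107, 2108 and 1971 CPM in no-UVB males and at 3985, 5678, 3972 and 3527 in UVB-irradiated males. All 4 irradiated males lay above every control, with a 2.70-fold rise (log2 1.43 ± 0.23, edgeR adjusted p = 0.000645). Females had 1479, 1551, 1523 and 990.4 CPM without UVB and 1806, 1657, 2239 and 1926 after it, again with no overlap. The female rise was 1.38-fold (log2 0.47 ± 0.16, edgeR adjusted p = 0.0801). That call was lost, at adjusted p between 0.104 and 0.195, when UVB-irradiated female 1, 3 or 4 or no-UVB female 2 or 4 was left out, at 0.129 with all 16 mice in 1 fit, and with upper quartile scaling (0.43, edgeR adjusted p = 0.1005).

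Within each mouse, the ratio of *Krt5* to *Krt14* per kb was 1.31 to 1.71 in no-UVB males and 0.600 to 0.766 in irradiated males. It was 1.46 to 1.54 in no-UVB females and 0.831 to 0.962 in irradiated females. Thus *Krt5* RNA exceeded *Krt14* RNA in all 8 control mice and was below it in all 8 irradiated mice, by a change in the mean log2 ratio of -1.16 ± 0.12 (SE) in males and -0.71 ± 0.05 in females. *Krt14* shares exact sequence of up to 134 bases with the stress keratin gene *Krt16*, and *Krt5* up to 140 bases with *Krt6a*. In the comparison of males *Krt16* went from 16.8 ± 4.13 to 1141 ± 327 CPM and *Krt6a* from 111.9 ± 32.3 to 1364 ± 369. Reads in such stretches were either dropped or placed by the aligner, and their part in the ratio was not tested.

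*Krt15* was the keratin that fell in both sexes. It was at 2075, 1611, 1616 and 1587 CPM in no-UVB males and at 594.3, 696.5, 886.8 and 678.5 in irradiated males. No-UVB females had 2570, 1759, 1884 and 1276 CPM, and irradiated females had 923.5, 554.0, 989.3 and 977.9. No irradiated mouse reached any control of its sex, and the fall was 2.38-fold in males (log2 -1.25 ± 0.13, edgeR adjusted p = 2.56e-05) and 2.16-fold in females (log2 -1.11 ± 0.24, edgeR adjusted p = 0.0120). Relative to *Krt14*, the other type I keratin of basal cells, its ratio per kb went from 0.803 to 1.72 in control males to 0.128 to 0.234 in irradiated males. In females that ratio went from 1.19 to 1.82 to 0.350 to 0.535.

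*Krt15* is also a label of the hair follicle bulge, so 6 other bulge markers were read beside it. Their summed level was 711.8 to 777.9 CPM in no-UVB males and 454.9 to 555.7 in irradiated males, and 5 of the 6 fell (30.5% of all genes did), among them the bulge surface protein gene *Cd34* (log2 -0.62 ± 0.11, edgeR adjusted p = 0.000525) and the stem cell receptor gene *Lgr5* (log2 -0.75 ± 0.18, edgeR adjusted p = 0.00672). *Sox9*, which did not pass, had 0.34 ± 0.20. In females the sum was 631.5 to 699.9 CPM without UVB and 537.4 to 576.8 after it, and *Lgr5* alone fell, where 10.6% of all genes did (log2 -0.54 ± 0.14, edgeR adjusted p = 0.0268). The part of the bulge in the fall of *Krt15* was not tested.

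**Figure D3:**
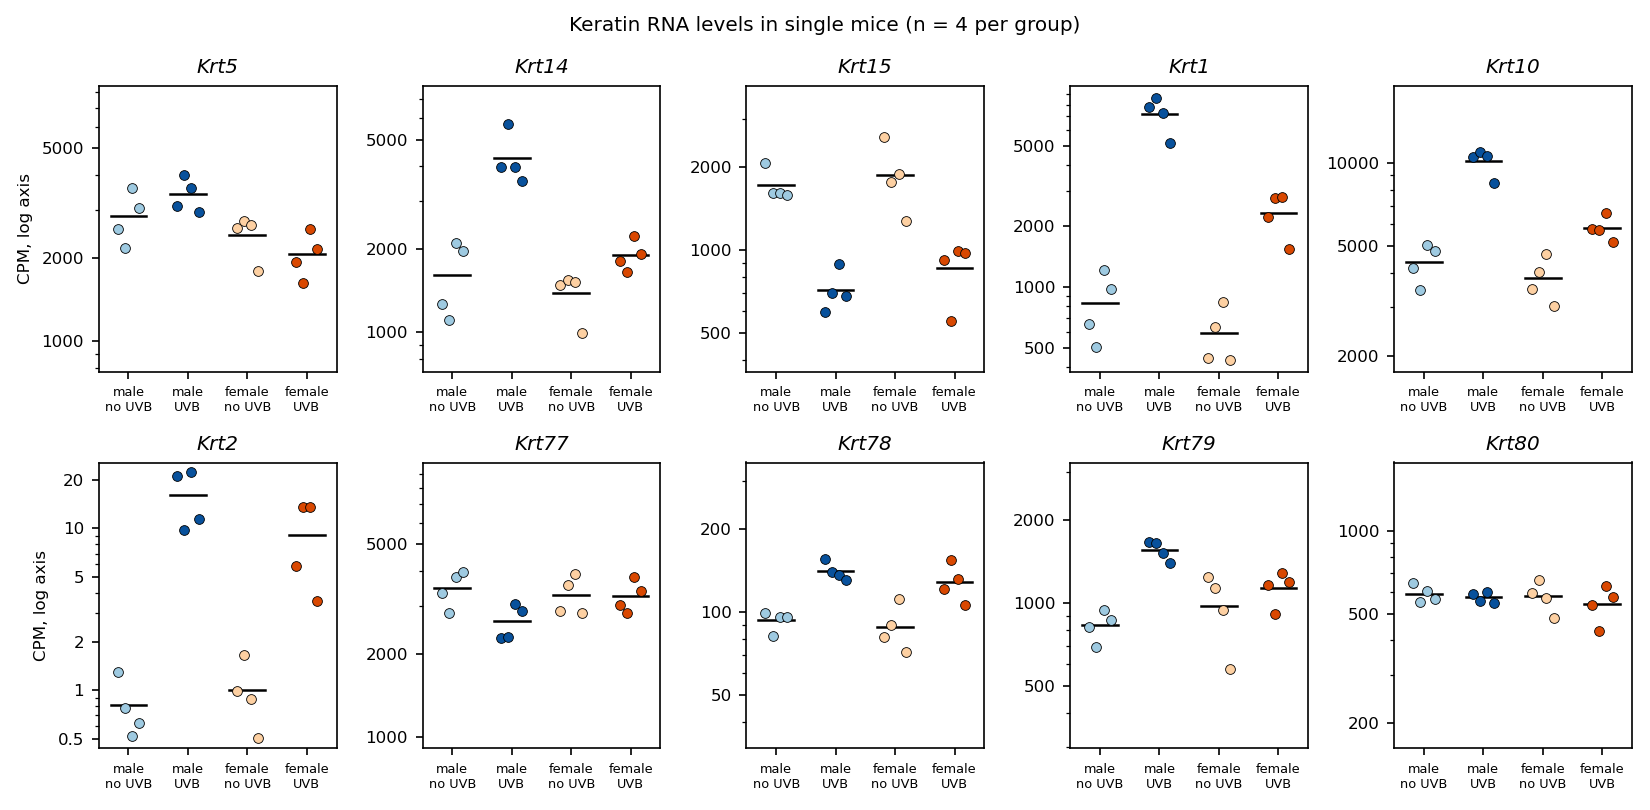
RNA level of each keratin in every mouse (CPM, log axis), with points in the order of mouse 1 to 4 and a bar at the mean of the 4 mice of a group. Irradiated mice stand clear of the controls of their sex for *Krt14*, *Krt15*, *Krt1*, *Krt10* and *Krt2* in both sexes, and for *Krt78* and *Krt79* in males.

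The suprabasal pair rose in both sexes, and its type II member rose the most. *Krt1* was at 652.4, 501.5, 1205 and 980.0 CPM in no-UVB males and at 7776, 8602, 7278 and 5185 in irradiated males, an 8.77-fold rise (log2 3.13 ± 0.29, edgeR adjusted p = 3.03e-05). Female levels of *Krt1* were 441.3, 635.6, 843.3 and 435.8 CPM without UVB and 2219, 2764, 2772 and 1533 after it, a 3.97-fold rise (log2 1.99 ± 0.26, edgeR adjusted p = 0.00110). The lowest irradiated male was thus above the highest irradiated female.

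*Krt10* was at 4153, 3458, 5028 and 4808 CPM in no-UVB males and at 10496, 10942, 10571 and 8470 in irradiated males, a 2.36-fold rise (log2 1.24 ± 0.14, edgeR adjusted p = 3.92e-05). Female levels of *Krt10* were 3481, 4029, 4686 and 3032 CPM without UVB and 5754, 5693, 6591 and 5155 after it, a 1.53-fold rise (log2 0.62 ± 0.17, edgeR adjusted p = 0.0337). No irradiated mouse overlapped the controls of its sex.

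*Krt1* and *Krt10* therefore came nearer to each other. Their ratio per kb was 0.0699 to 0.115 in control males and 0.295 to 0.379 in irradiated males, and 0.0611 to 0.0867 in control females and 0.143 to 0.234 in irradiated females. The change in the mean log2 ratio was 1.95 ± 0.18 in males and 1.38 ± 0.18 in females. By contrast, the ratio of *Krt10* to *Krt14*, the type I keratins of the 2 layers, overlapped between control and irradiated mice, at 2.10 to 2.90 against 1.70 to 2.35 in males and 2.07 to 2.71 against 2.36 to 3.03 in females. Set against *Krt5*, the type II keratin of basal cells, *Krt1* went from 0.116 to 0.168 to 0.883 to 1.26 in males and from 0.0858 to 0.161 to 0.355 to 0.852 in females. Over all mice, a suprabasal to basal balance read from the type I genes thus overlapped between the groups. The same balance read from the type II genes did not. In males the type I overlap rested on no-UVB males 3 and 4, at 2.10 and 2.15. No-UVB males 1 and 2, at 2.90 and 2.75, lay above every irradiated male.

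**Figure D4:**
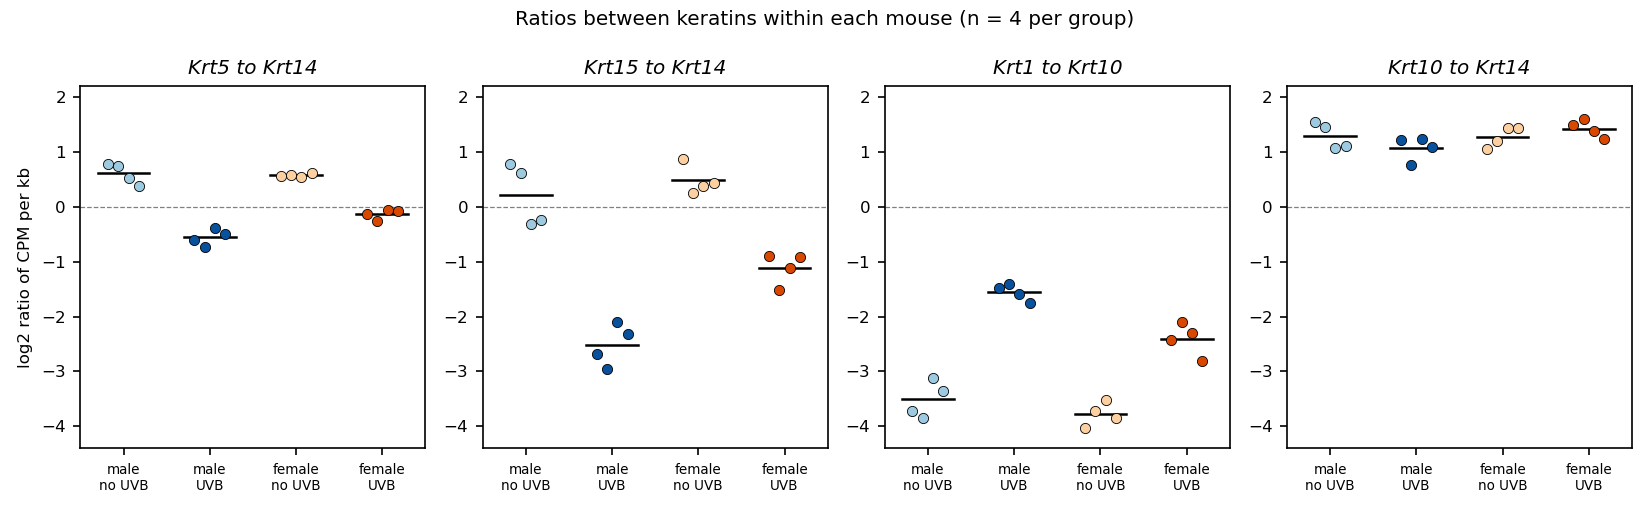
Log2 ratio of the levels per kb of 2 keratins in every mouse, with a bar at the group mean and a dashed line at equal levels. *Krt5* to *Krt14* passes from above 0 to below it in both sexes, *Krt15* to *Krt14* falls (mean change -2.72 in males and -1.59 in females), and *Krt1* to *Krt10* rises. *Krt10* to *Krt14* overlaps between control and irradiated mice, in males only through no-UVB males 3 and 4.

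*Krt2*, a type II keratin of the upper suprabasal layers, was scarce in control skin and had the largest fold of the 10 keratins. It was at 1.304, 0.782, 0.519 and 0.630 CPM in no-UVB males, from 28, 17, 12 and 11 reads, and at 21.0, 9.82, 22.2 and 11.4 in irradiated males. For females the values were 0.995, 1.66, 0.883 and 0.505 CPM without UVB and 5.86, 13.5, 13.6 and 3.58 after it. The groups did not overlap, and the rise was 20.2-fold in males (log2 4.34 ± 0.39, edgeR adjusted p = 2.98e-05) and 8.99-fold in females (log2 3.17 ± 0.49, edgeR adjusted p = 0.00303). After UVB the mice of a group still differed 2.26-fold in males and 3.79-fold in females from lowest to highest, and *Krt2* stayed the lowest of the 10 genes per kb.

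*Krt77*, a type II keratin described in suprabasal mouse epidermis, did not follow *Krt1*, which lies close to it on chromosome 15. It was at 3343, 2815, 3820 and 3956 CPM in no-UVB males and at 2282, 2316, 3036 and 2877 in irradiated males, a log2 fold change of -0.38 ± 0.14 (edgeR adjusted p = 0.0325) with overlapping groups. That call was lost without no-UVB males 3 and 4 (-0.19, edgeR adjusted p = 0.319). The females had 2874, 3551, 3918 and 2817 CPM without UVB and 3025, 2817, 3809 and 3398 after it, a log2 fold change of -0.00 ± 0.16. Its ratio to *Krt1* per kb was 4.61 to 8.16 in control males and 0.392 to 0.807 in irradiated males, and 6.76 to 9.47 and 1.48 to 3.22 in females.

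*Krt78*, another suprabasal type II keratin, rose by nearly the same amount in both sexes. It was at 99.4, 81.6, 96.2 and 96.0 CPM in no-UVB males and at 156.2, 139.7, 136.3 and 130.8 in irradiated males, a 1.53-fold rise (log2 0.62 ± 0.08, edgeR adjusted p = 6.10e-05). Female *Krt78* was at 81.0, 89.9, 111.4 and 71.6 CPM without UVB and at 121.5, 155.0, 131.6 and 105.8 after it, a 1.46-fold rise (log2 0.55 ± 0.15, edgeR adjusted p = 0.0354) with 3 of 4 irradiated females above every control.

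*Krt79*, a type II keratin of the upper hair follicle and sebaceous duct, rose in males. It was at 821.2, 692.6, 947.7 and 868.1 CPM in no-UVB males and at 1663, 1650, 1517 and 1396 in irradiated males (log2 0.92 ± 0.11, edgeR adjusted p = 3.73e-05). Female *Krt79* was at 1240, 1135, 947.9 and 578.7 CPM without UVB and at 1162, 910.7, 1290 and 1192 after it, with overlap and a log2 fold change of 0.23 ± 0.21 (edgeR adjusted p = 0.505). Of 4 other markers of the upper follicle and duct, the beta-defensin gene *Defb6* (log2 0.77 ± 0.11) and *Plet1* (0.56 ± 0.09) rose in males, *Lrig1* fell (-0.28 ± 0.07) and *Gata6* did not pass (0.24 ± 0.12), with edgeR adjusted p of 0.000186, 0.000323, 0.00511 and 0.109, where 29% of all genes were called higher and 30.5% lower. In females only *Defb6* of the 4 rose, where 12.8% of all genes did (log2 0.56 ± 0.16, edgeR adjusted p = 0.0453). The summed level of these 4 markers was 317.3 to 377.5 CPM in no-UVB males and 408.0 to 458.1 in irradiated males, and in females the groups overlapped at 295.2 to 457.8 and 382.8 to 458.1 CPM.

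*Krt80*, a type II keratin found in many epithelia, had the steadiest level of the 10. It was at 549.2 to 647.4 CPM in no-UVB males, 544.5 to 601.0 in irradiated males, 481.8 to 664.0 in no-UVB females and 431.5 to 627.2 in irradiated females. All 4 groups overlapped, and the log2 fold changes were -0.02 ± 0.07 in males (edgeR adjusted p = 0.818) and -0.08 ± 0.14 in females (edgeR adjusted p = 0.720).

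The 10 keratins together took 1.57% ± 0.28 (SD) of the gene reads in no-UVB males and 2.95% ± 0.32 in irradiated males. In females they took 1.62% ± 0.28 and 1.82% ± 0.23, and those groups overlapped. *Krt1* and *Krt10* alone went from 0.499% ± 0.107 to 1.67% ± 0.23 in males and from 0.473% ± 0.0999 to 0.819% ± 0.102 in females. *Krt5* and *Krt14* went from 0.427% ± 0.115 to 0.740% ± 0.127 in males and were at 0.411% ± 0.079 and 0.403% ± 0.073 in females.

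Some markers of keratinocytes that are not among the 10 genes moved too, where 29% of all genes in males and 12.8% in females were called higher. The suprabasal markers *Krtdap* (log2 1.19 ± 0.13 in males and 1.11 ± 0.12 in females), *Lgals7* (1.28 ± 0.13 and 0.79 ± 0.16) and *Sbsn* (0.70 ± 0.09 and 0.47 ± 0.16) rose in both sexes, at edgeR adjusted p of 2.65e-05, 2.00e-05 and 7.11e-05 in males and 0.000424, 0.00860 and 0.0656 in females. *Dsg1a* rose in males (0.44 ± 0.09, edgeR adjusted p = 0.00200) and had 0.14 ± 0.13 in females (edgeR adjusted p = 0.523). Of the basal markers, *Itga6* (0.24 ± 0.07, edgeR adjusted p = 0.0132) and *Itgb4* (0.38 ± 0.08, edgeR adjusted p = 0.00159) rose in males, while *Col17a1* and *Trp63* did not pass in either sex and *Itga6* and *Itgb4* did not in females.

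Fibroblast markers moved with these comparisons. The 6 of them summed to 78989 to 86184 CPM in no-UVB males, 28357 to 39253 in irradiated males, 19186 to 20519 in no-UVB females and 12102 to 21832 in irradiated females, and 5 of the 6 fell in males, where 30.5% of all genes did, while 1 rose and 1 fell in females. With scaling on all but the 100 most abundant genes, all 50 values of the keratins (10 genes in 5 comparisons) kept their direction and their side of the threshold. Of 7 skeletal muscle markers 5 fell in males, at sums of 18199 to 22632 CPM without UVB and 13184 to 16217 after it, and the sums of females overlapped at 12128 to 17418 and 12970 to 18745. Of 5 adipocyte markers 3 fell in males, at sums of 1278 to 1955 and 1093 to 1532 CPM that overlapped, as did those of females at 1365 to 2345 and 1384 to 2935. Of the 5 neutrophil markers tested, 4 rose and 1 fell in males, with the sum of the 6 in the list at 31.7 to 37.1 and 59.3 to 165.8 CPM, and 2 rose and 1 fell in females, at 31.4 to 44.1 and 31.2 to 35.8 CPM, where 29% of all genes in males and 12.8% in females were called higher and 10.6% of those in females lower. *Ptprc*, expressed by all leukocytes, fell in males (log2 -0.37) and females (-0.46). The part of these cell types in the keratin levels was not tested.

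Without UVB no keratin told the sexes apart. None of the 10 genes was called between no-UVB males and no-UVB females by edgeR or by DESeq2, and none had an unadjusted p under 0.05, where 11.8% of 17406 genes were called in either direction. The fitted male minus female log2 differences ran from -0.34 for *Krt2* to 0.50 for *Krt1*. *Krt79* was called in the fit without no-UVB female 4 (-0.43, edgeR adjusted p = 0.0645).

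After UVB, 5 of the 10 keratins were higher in males and none was lower (5 calls by DESeq2 too, and 5 with an unadjusted p under 0.05), where 12.8% of all genes were called higher in males. *Krt1* was 3.11-fold higher (log2 1.63 ± 0.29, edgeR adjusted p = 0.00207), *Krt14* 2.25-fold (1.17 ± 0.21, edgeR adjusted p = 0.00223), *Krt10* 1.75-fold (0.80 ± 0.15, edgeR adjusted p = 0.00320), *Krt5* 1.65-fold (0.72 ± 0.18, edgeR adjusted p = 0.0120) and *Krt79* 1.37-fold (0.45 ± 0.18, edgeR adjusted p = 0.0943). In each of these all 4 irradiated males lay above all 4 irradiated females. The first 4 passed in every fit that left out 1 mouse, while *Krt79* passed in 6 of 16 such fits and failed without UVB-irradiated female 1, 2 or 4, UVB-irradiated male 1, 2 or 3, no-UVB female 2 or 3, or no-UVB male 1 or 4. The *Krt79* call was also lost without no-UVB males 3 and 4 together (0.45, edgeR adjusted p = 0.111), with upper quartile scaling (0.41, edgeR adjusted p = 0.1257), with every gene of at least 1 count (0.44, edgeR adjusted p = 0.2455) and with counts taken without regard to strand (0.45, edgeR adjusted p = 0.103). *Krt2* (0.82 ± 0.38, edgeR adjusted p = 0.157) passed without UVB-irradiated female 3 (1.06, edgeR adjusted p = 0.0905).

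The response itself, as the male minus the female log2 fold change, was called for 1 keratin. *Krt14* rose by 0.95 ± 0.30 more in males (edgeR adjusted p = 0.0885), and 2.75% of all genes were called higher in males in this way. This call rests on small margins, since it passed in 5 of the 16 fits without 1 mouse, those without UVB-irradiated female 3, no-UVB female 4, UVB-irradiated male 4 or no-UVB male 3 or 4. It failed without any of the other 11, at adjusted p up to 0.170, and also with every gene of at least 1 count in the fit (0.239). The differences for *Krt1* (1.13 ± 0.40), *Krt10* (0.61 ± 0.22) and *Krt79* (0.68 ± 0.25) did not pass, at edgeR adjusted p of 0.124, 0.127 and 0.143. With *Krt14*, these 3 had unadjusted p under 0.05, and DESeq2 called all 4, at adjusted p of 0.0174 for *Krt14*, 0.0698 for *Krt1*, 0.0275 for *Krt10* and 0.0573 for *Krt79*.

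Single mice moved these values. *Krt1* passed without no-UVB female 4 (1.27, edgeR adjusted p = 0.0899) or no-UVB male 3 (1.36, edgeR adjusted p = 0.0597). *Krt10* passed without UVB-irradiated female 3, no-UVB female 4 or no-UVB male 3 (0.68 to 0.72, edgeR adjusted p = 0.0669 to 0.0923), and *Krt79* without no-UVB female 4 (0.88, edgeR adjusted p = 0.0198). Without both no-UVB males 3 and 4, the mice with the most hair shaft marker RNA, 4 keratins passed, namely *Krt14* (1.40), *Krt1* (1.66), *Krt10* (0.80) and *Krt5* (0.76), at edgeR adjusted p of 0.0146, 0.0273, 0.0679 and 0.0995. No keratin was called with the larger change in females by edgeR or DESeq2, and none had an unadjusted p under 0.05 in that direction. The differences for *Krt15* (-0.15 ± 0.29), *Krt78* (0.06 ± 0.18) and *Krt80* (0.05 ± 0.16) were smaller than their standard errors.

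The other 17 keratin genes with enough reads had 6 higher and 7 lower in males and 5 higher and 2 lower in females, where 29% and 30.5% of all genes in males and 12.8% and 10.6% in females were called so, and the male shares lay near these. Among them the stress keratins *Krt6a*, *Krt6b*, *Krt16* and *Krt17*, which replace the suprabasal pair in injured epidermis, were all called higher in males, and all but *Krt17* in females.

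Of 35 genes that regulate stratification, 20 rose and 3 fell in males (median log2 fold change 0.31) and 6 rose and 3 fell in females (median 0.05), beside 29% higher and 30.5% lower over all genes in males and 12.8% and 10.6% in females, so the female shares lay near those of all genes. The largest rises in males were those of the ETS factor gene *Ehf*, from 21.6 ± 3.80 to 88.1 ± 14.7 CPM (log2 2.05 ± 0.15, edgeR adjusted p = 5.03e-06), the 14-3-3 protein gene *Sfn*, from 225.6 ± 50.1 to 731.2 ± 117 CPM (1.72 ± 0.17, edgeR adjusted p = 3.44e-05), and *Elf3*, another ETS factor, at 0.824 ± 0.448 and 2.50 ± 1.64 CPM (1.55 ± 0.49, edgeR adjusted p = 0.0235). In females the largest were *Ehf* (0.99 ± 0.19, edgeR adjusted p = 0.00826), *Sfn* (0.86 ± 0.18, edgeR adjusted p = 0.0120) and the repressor gene *Ovol1* (0.61 ± 0.15, edgeR adjusted p = 0.0213). The 3 that fell were the same in both sexes. They were *Ovol2*, a relative of *Ovol1* (log2 -0.88 ± 0.24 in males and -0.93 ± 0.27 in females), the chromatin organiser gene *Satb1* (-0.62 ± 0.08 and -0.47 ± 0.11) and the Notch pathway factor gene *Rbpj* (-0.19 ± 0.06 and -0.34 ± 0.10), at edgeR adjusted p of 0.00912, 7.71e-05 and 0.0221 in males and 0.0422, 0.0166 and 0.0439 in females. *Ehf* (1.05 ± 0.26, edgeR adjusted p = 0.0453) and *Sfn* (0.85 ± 0.27, edgeR adjusted p = 0.0929) also rose more in males than in females.

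A list of 11 genes held those whose proteins bind or bundle keratin filaments, together with the keratin genes *Krt8* and *Krt18*. Of these, 10 were tested, and 6 rose and 2 fell in males (median log2 fold change 0.36) while 3 rose in females (median 0.08). Over all genes, 29% in males and 12.8% in females were called higher and 30.5% of those in males lower. *Flg*, whose product bundles keratin filaments in the outermost cells, went from 70.8 ± 10.9 to 1014 ± 253 CPM in males (log2 3.86 ± 0.21, edgeR adjusted p = 1.67e-06) and from 85.9 ± 13.9 to 628.6 ± 233 in females (2.88 ± 0.30, edgeR adjusted p = 0.000385). *Evpl*, which encodes the cornified envelope protein envoplakin, rose by 1.03 ± 0.09 in males (edgeR adjusted p = 6.36e-06) and 0.54 ± 0.14 in females (edgeR adjusted p = 0.0288). The 2 that fell in males were the epiplakin gene *Eppk1* (-0.49 ± 0.16, edgeR adjusted p = 0.0250) and *Dst* (-0.23 ± 0.09, edgeR adjusted p = 0.0648), whose product ties basal keratin to hemidesmosomes.

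The genes whose pattern over the 16 mice was nearest to each keratin were found among 10725 genes, by the root mean square difference of log2 CPM centred on each gene's own mean. This is a description, and the mice share their sex and treatment. Nearest to *Krt1* were *Casp14* (0.357), *Calm4* (0.374) and *Lce1f* (0.409), where *Krt1* itself varied by 1.48 about its mean. *Flg* (0.551), *Il36b* (0.694) and *Casp14* (0.702) were nearest to *Krt2*, which varied by 1.91. *Nkpd1* (0.175), *Bdh1* (0.197) and *Krt10* (0.216) were nearest to *Krt14*, and no other of the 10 keratins was among the 3 genes nearest to a further one. Among the genes nearest to *Krt5* were *Lmna* (0.171) and *Hspa1b* (0.174), and nearest to *Krt15* were *Abtb3* (0.232), *Cadm1* (0.233) and *Itpr2* (0.239).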

How the data were processed

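RNA from whole dorsal skin of 16 mice was sequenced by the authors from polyadenylated, strand-specific libraries. The authors deposited 1 table of whole-number gene counts per mouse, made with STAR (version not given in the sources used here) on GRCm39 and not normalized. Counts of the library's sense strand were used, as the other strand held 3.63 to 4.23% of gene reads, and no sample was left out. Gene names and lengths came from GENCODE M39 (54749 of 55359 identifiers, versions ignored).

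edgeR 4.0.16 in R 4.3.3 was applied (filterByExpr, TMM, robust quasi-likelihood test, Benjamini-Hochberg adjustment over all genes), after a check on simulated data, within each sex (8 mice) for UVB and over all 16 mice for the interaction and the sex differences. Ratios, orders of level and likeness were not tested. Libraries of a group differed by more than sampling noise (chi-square per degree of freedom 10 to 107). No label says whether mice shared a litter or cage, so p-values measure the spread between these mice.

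The 10 keratins and the gene lists were chosen with earlier results of these data known. All 10 are named, with up to 3 called rises and falls of the regulator list and 2 of the linker list in each sex, by size. Of the genes nearest in pattern, 1 is not reported here. Alternatives were DESeq2 1.42.0 (its size factors and its test), 2 other scalings, other count filters, counts without regard to strand, a replicate block, all mice in 1 fit, transcript length, leaving out each mouse and, chosen after the data were seen, leaving out no-UVB males 3 and 4 together.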

Additional observations from a re-analysis of the deposited data

Results flagged for a closer look

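Dixon's gap test marked 4 values, in 3 mice, that stood apart from the other 3 of their group, and chance marks about 1 in 20 groups. *Krt5* and *Krt14* were both lowest in no-UVB female 4, at 1799 CPM (the other 3 at 2576 to 2726) and 990.4 CPM (the other 3 at 1479 to 1551). *Krt15* was highest in no-UVB male 1, at 2075 CPM, where the other 3 had 1587 to 1616, and lowest in UVB-irradiated female 2, at 554.0 CPM, where the other 3 had 923.5 to 989.3. The response of *Krt14* differed between the sexes by a test of the difference, at 0.95 more on the log2 scale in males (edgeR adjusted p = 0.0885), a call that was lost in 11 of 16 fits without 1 mouse (adjusted p up to 0.170) and with every gene of at least 1 count (0.239).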

How the results depend on the processing

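Of the log2 fold changes of the keratins, recomputed for 5 comparisons, 434 of 460 kept their direction and side of the threshold under the alternatives, and 585 of 640 in the fits without 1 mouse. Within a sex the counts of keratins called for UVB stayed within 1.5 times, except that the 2 keratins lower in males became 1 without no-UVB males 3 and 4, where *Krt77* was lost. For the interaction, the 1 call became 4 with DESeq2's test, 0 with every gene of at least 1 count, 4 without no-UVB males 3 and 4, and 0 to 4 without 1 mouse. Over all genes, the 478 with a larger change in males became 782 with scaling on all but the 100 most abundant genes, 1102 with DESeq2's test, 229 with every gene of at least 1 count, 832 without no-UVB males 3 and 4, and 163 (without UVB-irradiated male 1) to 834 (without UVB-irradiated female 3) without 1 mouse. The 2222 genes higher in males after UVB became 1434 with every gene of at least 1 count and 1320 (without UVB-irradiated female 1) to 2341 without 1 mouse. Without 1 mouse the 740 genes with the larger change in females became 298 (without UVB-irradiated male 1) to 1020, and the 1255 higher and 797 lower in no-UVB males became 762 to 1388 and 430 to 943, lowest without no-UVB male 2. Without 1 mouse, 0 to 1 keratins were lower in no-UVB males than in no-UVB females. With the replicate number as a block, which does not pair the mice, 3 keratins were called for the interaction (same-number mice correlated at -0.123 to 0.217, and 6 of 24 pairs were over 0.1), after UVB 1 keratin was lower in males (*Krt77*) and *Krt2* was also called higher (0.91, edgeR adjusted p = 0.0792), and the female value of *Krt77* was 0.000223. With the longest transcript as length, *Krt1* was at 227.2, *Krt79* at 368.8 and *Krt80* at 149.1 CPM per kb in no-UVB mice.

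Without no-UVB males 3 and 4, the no-UVB difference between the sexes changed sign for *Krt5* (-0.043), *Krt14* (-0.22), *Krt1* (-0.028), *Krt2* (0.022) and *Krt77* (-0.094), none of them called. Leaving out 1 mouse, values that crossed 0 ran from -0.048 to 0.024 for *Krt80* in males, and in females from -0.087 to 0.091 for *Krt77* and -0.17 to 0.0072 for *Krt80*. For the interaction they ran from -0.34 to 0.015 for *Krt15*, -0.063 to 0.16 for *Krt78* and -0.048 to 0.14 for *Krt80*. Between no-UVB males and females they ran from -0.29 to 0.072 for *Krt15*, -0.0047 to 0.17 for *Krt77*, -0.034 to 0.19 for *Krt78* and -0.065 to 0.088 for *Krt80*, and after UVB from -0.015 to 0.16 for *Krt80*. The cause was not tested for any of these. Counts of 11 to 28 reads limit *Krt2* in no-UVB males.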
